A study of Mus musculus with 6 samples.

Results

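The genes described here are the kelch proteins of skeletal muscle and cullin 3, the scaffold of the ubiquitin ligase to which kelch proteins bring their substrates. All probes annotated to Klhl40, Klhl41, Klhl31, Klhl30, Klhl38, Klhl33, Klhl21, Kbtbd12, Kbtbd13 or Cul3 were taken, which gave 11 of the 45281 probes on the array and covered 8 of the 10 genes, out of 19057 named genes on the array. No probe was annotated to Klhl33 or Kbtbd12, so these genes were not measured here. RNA came from the quadriceps, the large muscle at the front of the thigh, of C57BL/6 mice at 0 days of age. Klhl40 wild-type mice (WT, n = 3) were compared with Klhl40 knockout mice (KO, n = 3), 1 Illumina bead array per mouse. Every KO mouse was matched to a WT littermate, and newborn tissue was chosen to limit effects of poor feeding. The sources used here do not say how the knockout allele was made.

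Kelch proteins of this family carry a BTB domain, which can bind cullin 3, and a propeller of kelch repeats, which binds a partner protein. With the RING subunit Rbx1 and the ubiquitin-like modifier Nedd8 they form a ligase that marks the partner with ubiquitin, although some members, Klhl40 among them, are known to stabilise their partners instead. Klhl40, Klhl41 and Kbtbd13 are of medical interest because loss or mutation of each human gene causes nemaline myopathy, a congenital weakness with rod-shaped protein deposits in the fibres.

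The upstream regions of Klhl40 and its close relative Klhl41 are shown because both genes were detected on all WT arrays and are the pair closest in known function, and a muscle gene's proximal region is where factors such as MyoD and MEF2 are known to bind. The sequences are the 250 bases before the annotated start from RefSeq, build GRCm38.p6, which held a window for 8 of the 10 genes. Both lie on the plus strand, Klhl40 at chr9:121777357-121777606 and Klhl41 at chr2:69669870-69670119. Capitals mark the E-box CANNTG, the letters bound by myogenic factors, and the loose MEF2-type letters CTANNNNTAG, where N is any base. Each motif reads the same on both strands, and no marked motif overlaps another.
Klhl40: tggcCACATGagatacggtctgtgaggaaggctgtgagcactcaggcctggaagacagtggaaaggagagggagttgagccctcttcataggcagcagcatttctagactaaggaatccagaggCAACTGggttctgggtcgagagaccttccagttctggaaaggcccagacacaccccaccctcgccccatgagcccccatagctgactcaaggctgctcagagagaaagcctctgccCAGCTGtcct
Klhl41: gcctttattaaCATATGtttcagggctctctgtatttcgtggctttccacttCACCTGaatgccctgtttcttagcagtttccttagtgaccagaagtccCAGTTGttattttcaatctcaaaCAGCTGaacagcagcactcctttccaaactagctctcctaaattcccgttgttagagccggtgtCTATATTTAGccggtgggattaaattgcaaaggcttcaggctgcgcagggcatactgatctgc
The Klhl40 window held 3 E-boxes and no MEF2-type match, and the Klhl41 window held 4 E-boxes and 1 MEF2-type match. E-box letters were present in 66.2% of all 32851 windows of this length, so their presence sets neither gene apart. The MEF2-type letters were present in 3.2% of all windows and in 4 of the 8 genes with a window, Klhl33 having 2 windows of which 1 held it. The matches are shown with 10 bases on each side, on the plus strand at chr2:69670047-69670076 for Klhl41, and on the minus strand at chr9:65391773-65391802 for Kbtbd13, chr6:88627501-88627530 for Kbtbd12 and chr14:50897514-50897543 for Klhl33.
Klhl41: gagccggtgtCTATATTTAGccggtgggat
Kbtbd13: tgagcagatcCTATCTTTAGccaggaaggt
Kbtbd12: ctcgcttggtCTATTTATAGtgcttgtcag
Klhl33: ctcaggctagCTATAATTAGccaagtgcgg
The Kbtbd13 match has a C among its 4 middle letters, where the other matches have only A and T. These matches describe letters and were not tested for binding. Klhl30 and Klhl38 had no entry in the sequence table.

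Of the 8 measured genes, 1 passed the test between genotypes. This was Klhl40, the gene knocked out in these mice, which fell in KO, so its call follows from the design. No other gene of the set was called in either direction. Over all 13455 genes tested, 0.149% were called at a limma adjusted p under 0.05, 0.111% as higher and 0.0372% as lower in KO. The median difference, KO minus WT on the log2 scale, was -0.01 over the 8 genes and -0.0022 over all genes. A probe entered the test when 3 or more of the 6 arrays gave it a detection p under 0.05, and 10 of the 11 probes did. Klhl40 passed through its WT arrays, the group in which it is high. Where a gene had several such probes, the brightest stood for it. A probe with no symbol or with several was tested as itself and is counted among the genes tested. Levels are log2 normalised intensities. The brightness of different probes is not compared, because probes differ in how well they bind their target.

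The tissue label was checked against markers. All 8 measured of 9 skeletal muscle markers, among them Ckm, Ttn and Myh8, were detected on all 6 arrays, with summed scanner intensities of 197261 to 202034 in WT and 193072 to 197881 in KO. Of 5 cardiac markers, Nppa and Myl7 were not detected on any array, whereas Myl4 (14782 to 18751), Sln (21008 to 26450) and Myh6 (676 to 908) were detected on all 6. Myl4 and Sln are also known from developing skeletal muscle. The array of WT 3 stood apart in its adipocyte markers, whose summed scanner intensity was 14347 there and 6143 to 7302 on the other 5 arrays. Of the 8 adipocyte markers 7 were measured, 3 were detected on all 6 arrays and 1, Retn, on none.

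Klhl40, which binds nebulin and leiomodin-3 in the thin filament, was read by 1 probe. Its scanner intensity was 1638, 1864 and 1858 on the arrays of WT 1, WT 2 and WT 3, and 118, 139 and 108 on those of KO 1, KO 2 and KO 3. The KO values therefore lay close to the array medians of 111 to 113, far below every WT value. The mean WT intensity was 14.7 times the mean KO intensity before background correction. The log2 level averaged 10.72 ± 0.08 across the WT mice and 4.99 ± 0.66 across the KO mice (SD, n = 3 each). The difference was -5.73 with a 95% interval of -6.41 to -5.06 (limma adjusted p = 0.00115). Without background correction the difference was -3.87, so its size rests on how the background is treated.

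Among the KO arrays, that of KO 2 was the 1 on which Klhl40 was detected. Its intensity of 139 had a bead standard error of 3.55 over 51 beads and a detection p of 0.00107, whereas KO 1 at 118 had a detection p of 0.0652 and KO 3 at 108 one of 0.239. The bead standard error covers the reading within 1 array, not the spread between arrays or mice. The sources used here do not place the probe relative to the change made in the knockout allele, and what the KO 2 signal reads was not tested.

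**Figure D1:**
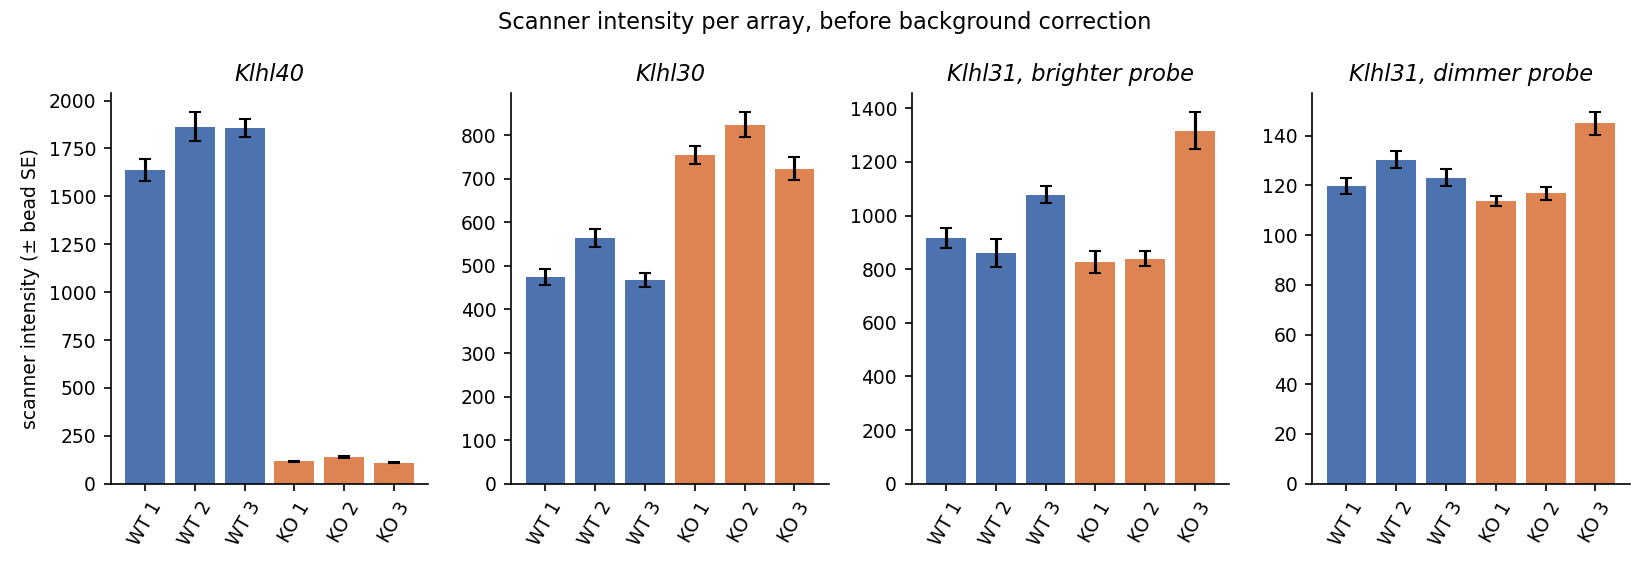
Scanner intensity (arbitrary units, linear, y axes from 0 and differing between panels) on each of the 6 arrays for Klhl40, Klhl30 and the 2 kept probes of Klhl31, with WT in blue and KO in orange; error bars are the standard error over beads. Klhl40 is at 108 to 139 on the KO arrays, Klhl30 is higher on all 3 KO arrays, and both Klhl31 probes are highest in KO 3.

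The gene that follows Klhl40 in the assembly GRCm38.p6 is Hhatl, named for its similarity to hedgehog acyltransferase, and the annotated spans of Klhl40 and Hhatl overlap there. Its log2 level was 10.71, 10.73 and 10.44 in WT 1 to WT 3 and 9.62, 9.64 and 9.67 in KO 1 to KO 3. Hhatl fell, with a difference of -0.98 (limma adjusted p = 0.0318). It kept the call without WT 3, at an adjusted p of 0.0134, and lost it without each of the other 5 arrays in turn, at 0.137 to 0.203, and with no filter on dim probes, at 0.0680, with differences of -1.08 to -0.93 over the 6 fits that left out an array. The gene before Klhl40, Zfp651, had no probe in the tested set. Any effect of the knockout allele itself on its overlapping neighbour was not tested.

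Klhl30, a muscle-enriched kelch gene whose protein partners are little known, had the largest difference of the 7 genes other than Klhl40. Its scanner intensity was 474, 564 and 468 in WT 1 to WT 3 and 754, 824 and 724 in KO 1 to KO 3. Every KO value lay above every WT value, and the bead standard errors, which cover the reading within an array, were 16.5 to 28.7 units. The log2 level averaged 8.65 ± 0.22 across the WT mice and 9.43 ± 0.16 across the KO mice (SD, n = 3 each). The difference was 0.78 with a 95% interval of 0.44 to 1.11, or 1.71-fold. The unadjusted limma p was 0.000746, and after adjustment over all genes it was 0.163, so Klhl30 did not pass. An unadjusted p under 0.05 was reached by 2 of the 8 genes, Klhl40 and Klhl30, and by 7.27% of all genes. Klhl40 is the gene knocked out, so its place in this count follows from the design. Within same-numbered pairs the Klhl30 difference was 0.78, 0.72 and 0.83. Without WT 3 it was 0.68.

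Klhl41, also called sarcosin or Kbtbd10, is the closest of these genes to Klhl40 in known function and binds the thin-filament proteins nebulin and Nrap. Its log2 level was 12.04, 12.14 and 11.97 in WT 1 to WT 3 and 12.24, 12.20 and 12.21 in KO 1 to KO 3. The KO values lay together just above the highest WT value, but on the scanner scale, at 4057 to 4655 in WT and 4614 to 5119 in KO, the groups overlapped. The difference of 0.16 had a 95% interval of -0.05 to 0.38 and did not pass (limma adjusted p = 0.805). A rise above 0.38 on the log2 scale lies outside this interval, which does not show that the level was the same.

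Klhl40, Klhl30 and Klhl41 were thus the 3 of 8 genes whose log2 levels did not overlap between the genotypes, against 13.3% of all genes tested. Here too Klhl40 counts by design, as the gene knocked out. On the scanner scale, before normalisation, some markers of muscle and of other cells were apart between the groups. The 13.3% refers to normalised log2 levels, so it is not a background for these markers. Of 8 skeletal muscle markers, Des was higher in KO, at 9906 to 11079 in WT and 11703 to 13353 in KO. Myl1 (32581 to 33279 in WT, 30576 to 30986 in KO) and Myh8 (38313 to 40396 in WT, 37832 to 38137 in KO) were lower. Acta1, Ckm, Ttn, Tnnt3 and Mylpf overlapped. Of the macrophage markers, C1qa was lower (167 to 169 in WT, 136 to 158 in KO), C1qb, Csf1r and Lyz2 overlapped, and Ptprc was not detected. Of the adipocyte markers, Lep, dim and detected on 5 arrays, was lower (122 to 156 in WT, 118 to 119 in KO). Adipoq, Plin1, Cidec, Car3 and Fabp4 overlapped, as did all measured endothelial and erythroid markers. The summed intensity of 4 smooth muscle markers was 14096 to 14521 in WT and 10018 to 10494 in KO, nearly all of it Acta2. Acta2 was the 1 smooth muscle marker with no overlap and a detected signal, since Myh11 (208 to 326 in WT, 198 to 253 in KO) and Tagln (121 to 136 in WT, 116 to 128 in KO) overlapped and Cnn1 was not detected on any array. That of 7 fibroblast markers, each detected on all 6 arrays, was 23999 to 26520 in WT and 22875 to 23331 in KO. Of these 7, Dcn (8641 to 9117 in WT, 7442 to 8519 in KO) and Lum (2239 to 2672 in WT, 1742 to 1913 in KO) were apart, and Col1a1, Col1a2, Col3a1, Pdgfra and Fn1 overlapped. Sln, listed as a cardiac marker, was apart in the other direction, at 21008 to 21790 in WT and 24522 to 26450 in KO. Their part in the kelch gene differences was not tested, and in whole muscle fewer cells of a type and less RNA per cell cannot be told apart.

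**Figure D2:**
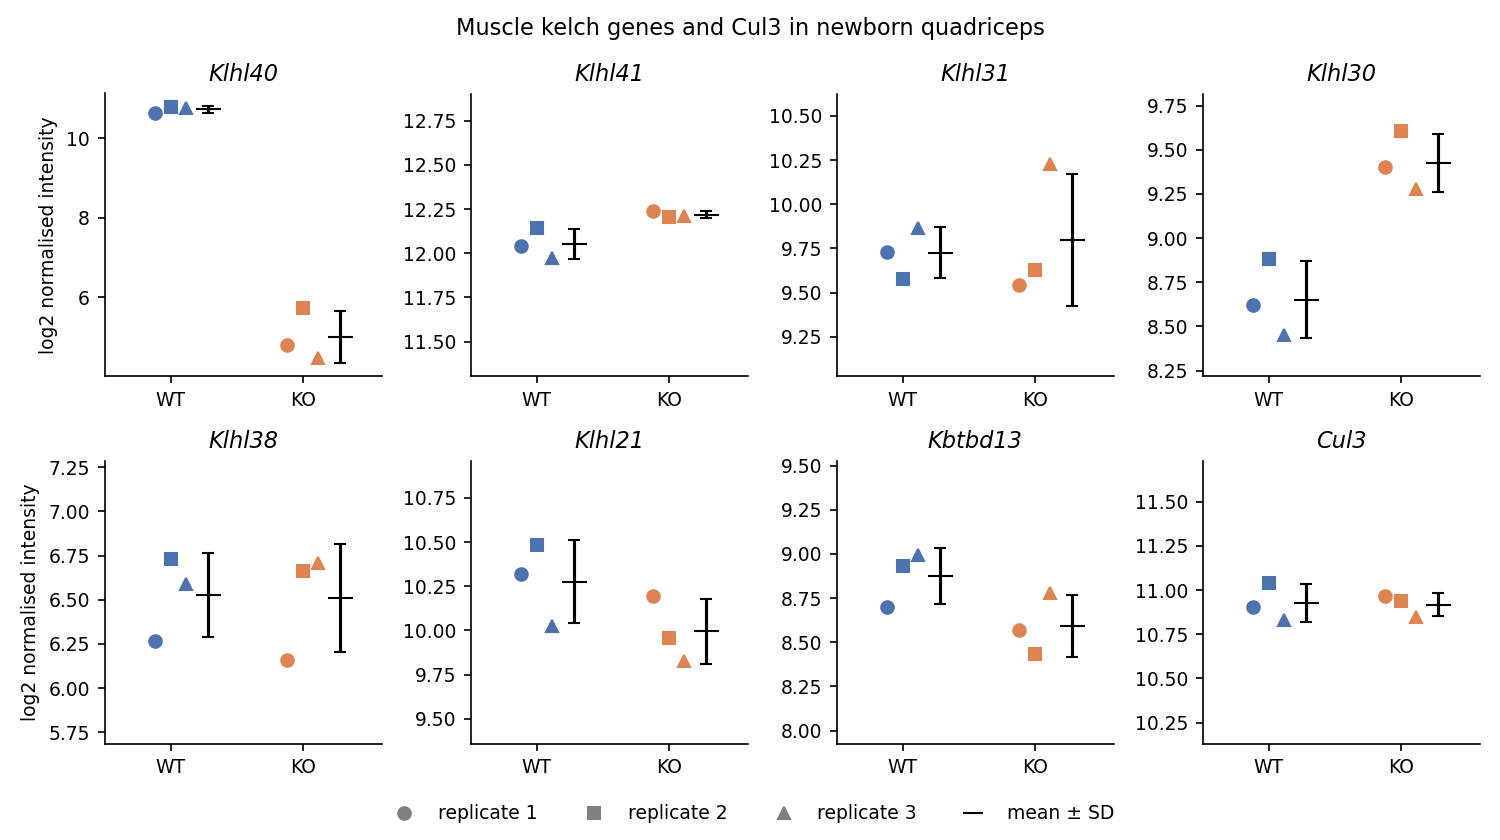
Log2 normalised intensity of the 8 measured genes on each array, WT in blue and KO in orange, with a marker shape for each replicate number and black bars for the mean ± SD (n = 3); each panel has its own axis range. The groups are apart for Klhl40, Klhl30 and Klhl41 and overlap for the other 5 genes.

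Klhl31, known in mice for its binding of filamin C, had a wide spread within KO. Its brighter probe had log2 levels of 9.73, 9.58 and 9.87 in WT 1 to WT 3 and 9.54, 9.63 and 10.23 in KO 1 to KO 3. KO 3 stood above all other arrays, and the dimmer Klhl31 probe repeated this, at 5.73 in KO 3 against 4.62 to 5.33 elsewhere. The scanner intensity of the brighter probe in KO 3 was 1317, with a bead standard error of 68.9, against 827 and 840 in the other KO mice. The KO minus WT difference was 0.07 for the brighter probe, with a 95% interval of -0.37 to 0.51 (limma adjusted p = 0.971), and -0.02 for the dimmer one (limma adjusted p = 0.997 over all kept probes). Without KO 3 the brighter probe gave -0.14. The dimmer probe was detected on 3 WT and 2 KO arrays.

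Kbtbd13 and Klhl21 had differences of similar size in the negative direction. Kbtbd13, whose human counterpart is mutated in a slow-relaxing form of nemaline myopathy, had log2 levels of 8.70, 8.93 and 8.996 in WT 1 to WT 3 and 8.57, 8.43 and 8.78 in KO 1 to KO 3. KO 3 lay above WT 1, so the groups overlapped. Its difference was -0.28 with a 95% interval of -0.59 to 0.02 (limma adjusted p = 0.715). A second Kbtbd13 probe was not detected on any array, at scanner intensities of 104 to 114,, so it was not above background.

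Klhl21, an adaptor known from dividing cells, where it directs cullin 3 to the kinase Aurora B, had log2 levels of 10.32, 10.49 and 10.02 in WT 1 to WT 3 and 10.20, 9.96 and 9.83 in KO 1 to KO 3. KO 1 lay above WT 3, and the highest WT value was that of WT 2. The difference was -0.28 with a 95% interval of -0.64 to 0.07 (limma adjusted p = 0.787). Within same-numbered pairs it was -0.13, -0.53 and -0.20, and the Kbtbd13 difference was -0.13, -0.50 and -0.22, so in both genes the second pair carried the most. The Klhl21 probe had the largest bead error of the set, up to 7.69% of its intensity.

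Klhl38, another muscle-enriched kelch gene, was dim but detected on all 6 arrays, at 165, 195 and 194 scanner units in WT 1 to WT 3 and 160, 184 and 200 in KO 1 to KO 3. The lowest array of each genotype was that of replicate 1. The log2 difference was -0.02 with a 95% interval of -0.45 to 0.41 (limma adjusted p = 0.994). A change of up to 0.41 on the log2 scale in either direction therefore lies inside the interval.

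Cul3 itself differed little between genotypes on both of its probes. The brighter probe had log2 levels of 10.91, 11.04 and 10.83 in WT 1 to WT 3 and 10.97, 10.94 and 10.85 in KO 1 to KO 3. The KO range lay inside the WT range, and the difference of -0.01 had a 95% interval of -0.24 to 0.22 (limma adjusted p = 0.995). The dimmer probe averaged 9.21 ± 0.12 across WT mice and 9.22 ± 0.10 across KO mice (SD, n = 3 each).

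**Figure D3:**
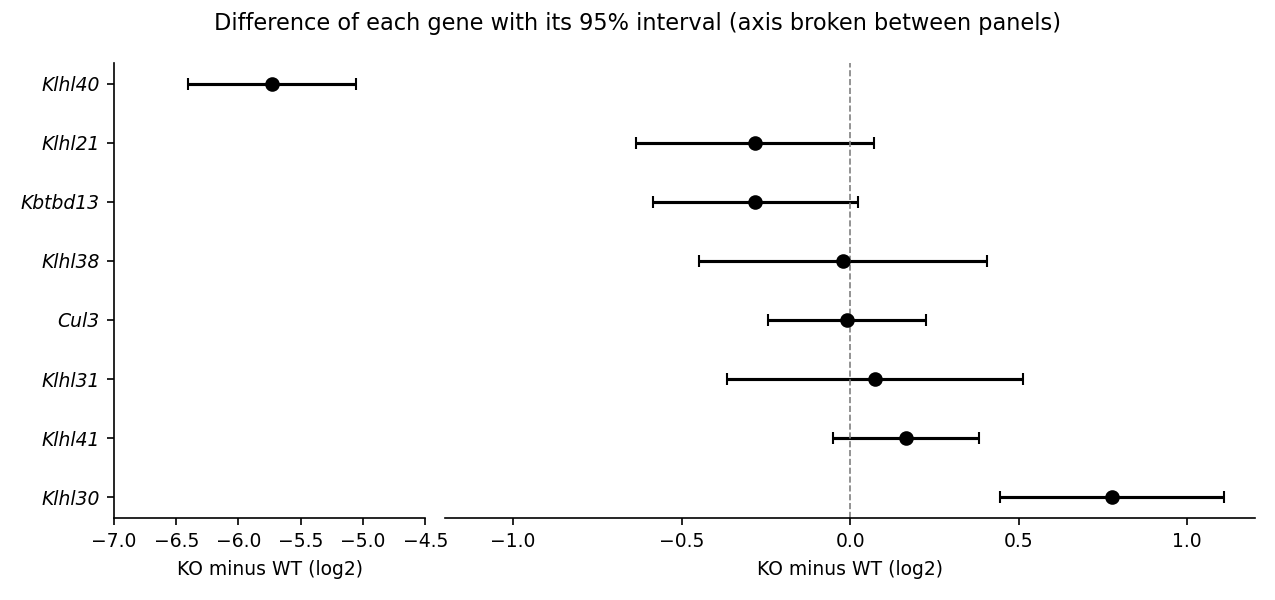
Difference KO minus WT on the log2 scale for the 8 measured genes, as points with 95% intervals from limma; the axis is broken between the panels. Klhl40 lies at -5.73 and Klhl30 at 0.78, while the intervals of the other 6 genes include 0.

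The rest of the cullin 3 system was described with 5 lists. The lists are broad and also hold other cullins, among them Cul1, Cul2 and Cul5. Over all lists, 81 of 103 genes were tested and 0 passed in either direction by limma, with 8 at an unadjusted p under 0.05, a p that 7.27% of all genes reached. Their median difference was 0.01. Among 28 other kelch and BTB genes the median was 0.0037 and the differences ran from -0.28 to 0.54. The smallest p values were those of Klhl34 and Klhl6. Klhl34 had a difference of 0.54 (limma adjusted p = 0.235) from a level near background, detected on 0 WT and 3 KO arrays, and it entered the test only through KO. Without background correction that difference was 0.16 (limma adjusted p = 0.431). Klhl6, a kelch gene known from B lymphocytes, had log2 levels of 8.55 ± 0.19 for WT and 9.04 ± 0.11 for KO (SD, n = 3 each), which differ by 0.49 (limma adjusted p = 0.374).

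None of the 18 tested cullin, RING and neddylation genes passed, and 2 of them, named next, had an unadjusted p under 0.05, against 7.27% of all genes. Their median difference was 0.02, with a range of -0.24 to 0.40. Ube2f, which conjugates Nedd8, had a difference of 0.40 (limma adjusted p = 0.383), and Arih1, a ligase that works with neddylated cullins, had 0.29 (limma adjusted p = 0.650). Among 10 genes of the COP9 signalosome, the complex that removes Nedd8 from cullins, the differences ran from -0.12 to 0.20, with Cops2 at 0.20 (limma adjusted p = 0.733) and Cops4 at 0.12 (limma adjusted p = 0.889). Among 16 other BTB adaptors the median was -0.0093, with Zbtb16 at 0.46 (limma adjusted p = 0.748) and Btbd1 at 0.21 (limma adjusted p = 0.751).

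The reported binding partners of these proteins had differences of -0.29 to 0.81, and none of the 9 passed by limma, with 3 at an unadjusted p under 0.05 against 7.27% of all genes. Nrap, a partner of Klhl41 in assembling myofibrils, had log2 levels of 12.12, 12.10 and 11.87 in WT 1 to WT 3 and 12.86, 12.77 and 12.88 in KO 1 to KO 3. Its difference of 0.81 lay at a limma adjusted p of 0.0529, and without background correction it passed at 0.0198, as it did with detection required on all 6 arrays at p under 0.01, at 0.0380. With the mean of all kept Nrap probes the difference was 0.64 (limma adjusted p = 0.207), and over all alternatives run the adjusted p lay between 0.0198 and 0.314. Flnc, the filamin of the Z-disc and partner of Klhl31, had a difference of 0.51 (limma adjusted p = 0.321). Lasp1, an actin-binding partner of Klhl41, had -0.29. The Klhl40 partners Lmod3 and Neb had 0.23 and 0.01, and Tfdp1, a cell cycle factor reported to be controlled by Klhl40, had -0.10. E2f1, which pairs with Tfdp1, had -0.02, as did the Klhl21 partner Aurkb, and Ikbkb, another Klhl21 partner, had 0.26. The array reads RNA, so protein levels of these partners were not measured here.

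**Figure D4:**
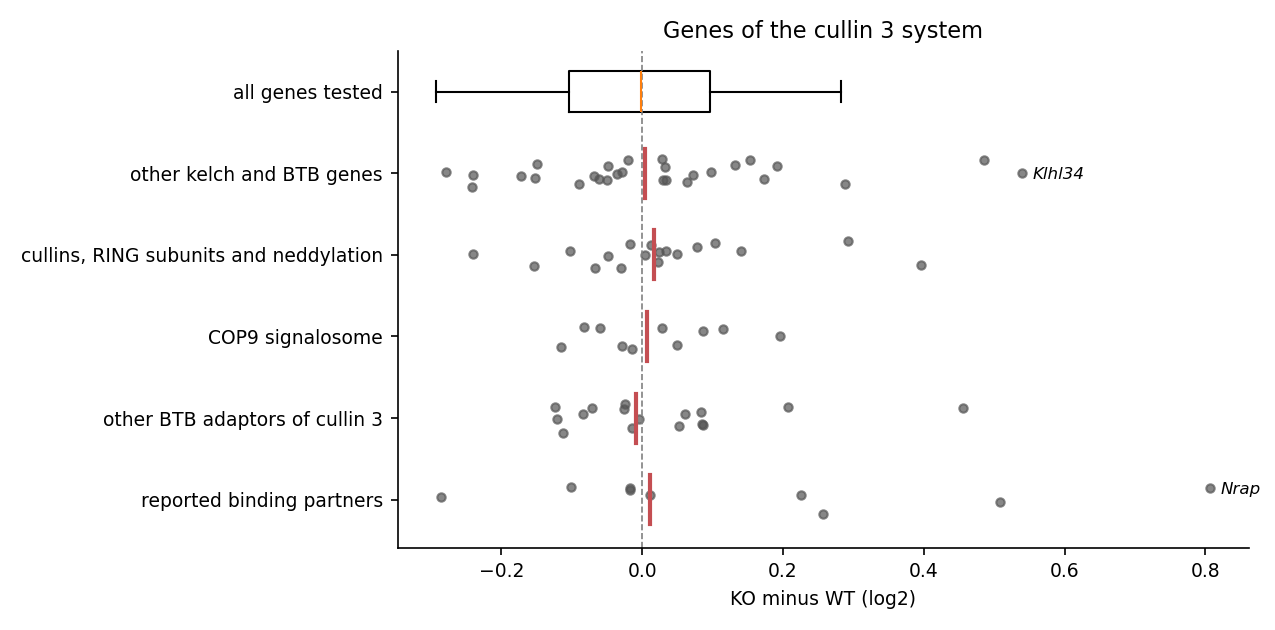
Difference KO minus WT (log2) for the tested genes of 5 lists of the cullin 3 system, 1 point per gene with the list median as a red line; the box for all 13455 genes spans the quartiles, with whiskers at the 5th and 95th percentiles. The list medians lie between -0.0093 and 0.02, and Nrap at 0.81 and Klhl34 at 0.54 (0.16 without background correction) lie farthest to the right in their lists.

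Across the 6 arrays, the named genes whose log2 levels correlated best with Klhl40 were Gap43 (r = 0.995), Myl6 (r = 0.993) and Acta2 (r = 0.993). For Klhl41 they were Pdlim1 (r = 0.993), Rdh14 (r = 0.993) and Vgll2 (r = 0.992). These r values describe 6 points that share the genotype split, out of 10492 named genes, of which 135 had an r over 0.9 with Klhl40 and 201 with Klhl41. The size of the difference was not alike, at -0.17 for Gap43, -0.28 for Myl6 and -0.48 for Acta2 beside -5.73 for Klhl40.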

How the data were processed

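Total RNA was prepared with Trizol and labelled as Cy3 cRNA with an Ambion MessageAmp kit, per the labels' protocols. The deposited table holds, per the file headers, the mean bead intensity, its bead standard error, the number of beads and a detection p-value for each probe and array. The sources used here name no scanner or software. A second deposited table of intensity, quantile normalised as its values show, served as an alternative. Intensities were normalised with neqc of limma 3.58.1 in R 4.3.3, with an offset of 16, and kept as log2 values. Of 45281 probes, 34885 had 1 symbol, 18 several and 10378 none in the probe annotation, and 19099 passed the detection filter. Genotypes were compared by limma (lmFit, eBayes, two-sided) over 13455 genes with Benjamini-Hochberg adjustment, and over all kept probes for second probes. The code was tested on simulated data. Named were all members and their probes, all 9 binding partners, list members past the threshold or else the 2 with the smallest p, neighbours of called members in the RefSeq table, and the 3 most correlated genes for Klhl40 and Klhl41. Members and lists were chosen with earlier results of these data known. Member values rest on 21 to 70 beads, and the number of arrays limits precision.

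The design text pairs each KO mouse with a WT littermate, and replicate numbers come from the titles. Deviations from group means correlated by 0.33, 0.22 and 0.46 between same-numbered arrays. Within a group these deviations depend on each other, so the correlations cannot decide the pairing. Where pairs are used here, same numbers were taken as pairs. WT 2 correlated by 0.24 with KO 1, more than with KO 2. The labels do not say that a number marks a pair, so this pairing is an assumption. The main fit has no pair term.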

Additional observations from a re-analysis of the deposited data

How the results depend on the processing

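Klhl40 kept its direction and its call under all 12 alternatives that tested it, with adjusted p between 3.51e-05 and 0.0412. With detection required at p under 0.01 on all 6 arrays Klhl40 was no longer tested, which left 0 of the members called. With same-numbered arrays assumed to be littermate pairs and used as a replicate block, no call of a member changed. Under that block the Klhl30 difference of 0.78 came closest to its threshold, at an adjusted p of 0.0504 (lowest of 13 alternatives, the highest being 0.582). The block called 26 genes in all against 20 without it, 16 of them in common. Members at an unadjusted limma p under 0.05 numbered 4 of 8 under the block, against 2 in the main fit. Over all 13455 genes, 1473 reached it under the block and 978 in the main fit. Without background correction the members again numbered 4, with 1057 over all genes. Over all alternatives the member count ran from 1 to 4. Klhl30 (0.66 to 0.89), Klhl41 (0.13 to 0.21), Klhl21 (-0.41 to -0.18) and Kbtbd13 (-0.37 to -0.20) kept direction and stayed short of the threshold under every alternative run. Leaving out 1 array gave ranges that include 0 for Klhl31 (-0.14 to 0.20, dimmer probe -0.35 to 0.20), Klhl38 (-0.15 to 0.16) and Cul3 (-0.0575 to 0.0487, dimmer probe -0.0351 to 0.0758), and the dimmer Klhl31 probe gave 0.0020 without background correction. None of these was called. Over all genes, 31 were called without background correction, 31 on the authors' normalised table, and 1 with no filter on dim probes, where 29453 were tested. The first 2 of these gave nearly the same values, with Klhl40 at -3.868 in both, and are not independent alternatives. Leaving out 1 array gave 1 to 24 calls: 1 without WT 1 or KO 1, 2 without KO 2, 4 without KO 3, 7 without WT 2 and 24 without WT 3. Of the other genes of the cullin 3 system 1 passed without background correction, Nrap at 0.79, and 0 without each array in turn. For Klhl40 in KO and the dimmer Klhl31 probe, signal near background limits the value.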
